A study of Danio rerio with 4 samples.

Results

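The genes described here are 6 genes of Notch signalling: the receptor genes notch3 and notch1a, the feedback gene nrarpb, and the ligand genes dlb, dld and jag2a. They were taken by name from the lists of differing genes that the authors deposited for sorted centroacinar and non-centroacinar cells, from the pancreas of adult zebrafish, and are 6 of the 3020 distinct genes on those lists. Of the 6, 5 were found by the symbol in the files. The row taken as jag2a carries the symbol JAG2 in the file and was matched through its Ensembl identifier.

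Notch receptors are single-pass membrane proteins. A ligand of the Delta or Jagged family on a neighbouring cell triggers their cleavage, and the freed intracellular part enters the nucleus, binds the DNA-binding protein Rbpj and switches on target genes, chiefly the repressors of the Hes family. Nrarp proteins are induced by Notch and limit it in turn by acting on the complex of the receptor fragment and Rbpj. In the developing pancreas Notch holds progenitors back from differentiating, and in adult zebrafish centroacinar cells, which sit at the tips of the ducts within the acini, are known as cells in which the pathway is active.

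Each group had 2 libraries from fish of the AB strain: cells labelled as isolated centroacinar cells (CAC) and cells labelled as isolated non-centroacinar cells (non-CAC), both sorted by flow cytometry from dissected, dissociated pancreas, with no treatment named. The labels do not say which marker guided the sort, so it is not known here whether Notch activity was itself a criterion of the sort. They also do not say whether fish were pooled or whether the replicates came from separate fish, so the spread between replicates may be technical. Every value below is a ratio between the CAC and the non-CAC library of 1 replicate, because the deposited tables hold no level for either library, and the depth of the libraries is unknown. Which population is the numerator is not named in the headers, so genes are placed below or above a ratio of 1. Where the replicates are compared, averaged or fitted together, both are taken to have the same numerator, which the headers do not state. In bulk sorted cells, fewer cells of a type and less RNA per cell cannot be told apart.

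The table of replicate 1 held 1812 genes and that of replicate 2 held 1560. Every listed gene had a posterior probability of equal expression under 0.01, as the authors' tables give it, so being listed already means being called different. Of all listed genes, 33.4% lay below 1 and 66.6% above in replicate 1, and 57.1% below and 42.9% above in replicate 2. Of the ductal and centroacinar marker list (13 genes), 9 members were listed in replicate 1 and 11 in replicate 2, every one below 1, among them the chloride channel gene cftr. Of 20 acinar markers, 1 was listed in replicate 1 and 18 in replicate 2, every one above 1. Leukocyte markers lay above 1 wherever listed (8 of 14 genes in replicate 1 and 6 in replicate 2). Of these, 6 in replicate 1 and 1 in replicate 2 were floor genes (defined below). Of 14 mural and mesenchymal markers, a setting in which notch3 is also known, only col1a1b was listed, in replicate 2 and above 1. The other 13, among them pdgfrb and acta2, were in neither table. Outside this list and picked after their values were seen, myl9b, MYLK and mylka, myosin light chain and light chain kinase genes, lay below 1 in both replicates. So did 61.4% of all genes in both tables. The part of mural cells in the notch3 ratios was not tested. Endothelial markers, 11 genes, were listed in replicate 1 alone, 4 above 1, of which 3 were floor genes, and 1 (cdh5) below. Of 11 endocrine markers, the authors' deposited tables held neurog3 at -6.95 and rfx6 at 9.03 on the log2 scale in replicate 1, both floor genes (defined below), and the insulin gene ins at 1.71 in replicate 2.

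The receptor and feedback genes and the ligand genes lay on opposite sides of 1. In replicate 1 the receptor gene notch3 was below 1 and the genes of the ligands Dlb, Jag2a and Dld were above 1, and in replicate 2 notch3, notch1a and nrarpb were all below 1 and no ligand gene was listed. Taken relative to the median of the listed genes of their own table, however, notch1a and nrarpb changed side, to log2 values of 0.20 and 0.22. The gene notch3 stayed below and the ligand genes stayed above. These medians are those of genes called different, 6.02 in replicate 1 and -1.90 in replicate 2. So no gene below 1 could change side in replicate 1, and in replicate 2 any listed gene between -1.90 and 0 had to. Below 1, the side of the ductal markers, lay 1 of the 4 listed members in replicate 1, where 33.4% of all listed genes did, and 3 of 3 in replicate 2, where 57.1% did. Above 1 were 3 of 4 members in replicate 1, where 66.6% of all listed genes lay above, and 0 of 3 in replicate 2, against 42.9%. With 4 and 3 genes these shares cannot be read as differing from those of the whole tables. The median log2 ratio of the listed members was 6.23 in replicate 1, beside 6.02 over all listed genes, and -1.70 in replicate 2, beside -1.90.

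**Figure D1:**
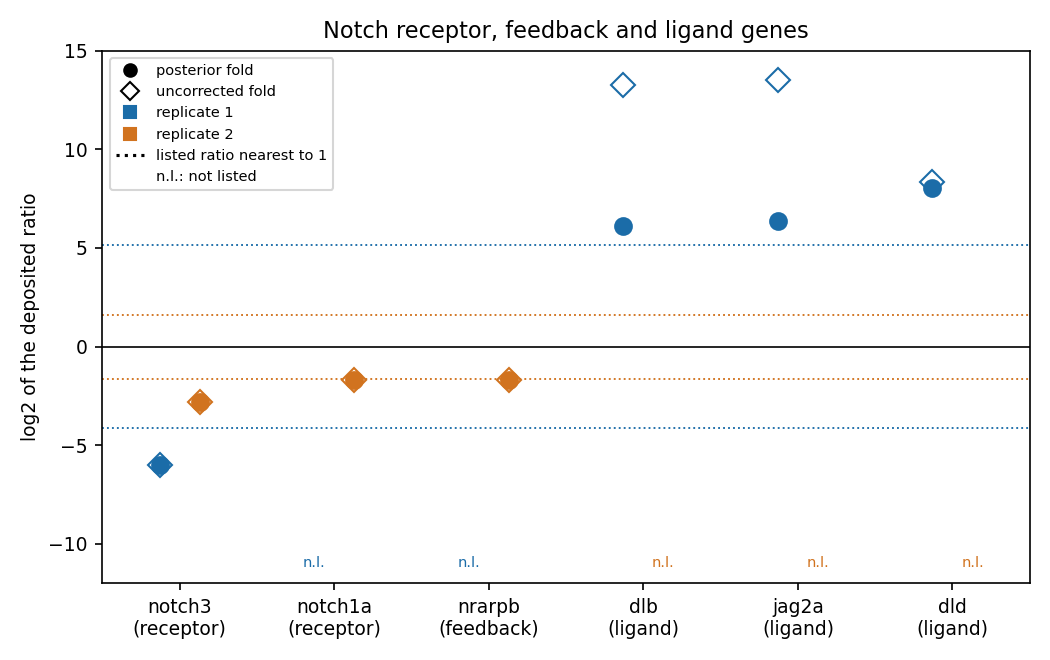
Log2 of the ratio deposited for each gene in replicate 1 (blue) and replicate 2 (orange), as posterior fold (filled circles) and uncorrected fold (open diamonds), with dotted lines at the listed ratios nearest to 1 and n.l. where a gene was not listed. Receptor and feedback genes sit below 0 and ligand genes above. Centred on the median of the genes called different in replicate 2, notch1a and nrarpb move to 0.20 and 0.22. For dlb and jag2a the fold columns lie far apart.

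The gene notch3 was the only one of the 6 in both tables, as were 11.7% of all distinct listed genes. It encodes one of the zebrafish Notch receptors (ENSDARG00000052139, Zv9 chromosome 3, 54165564 to 54197194, a span of 31631 bp). The authors' deposited tables gave notch3 a ratio of 0.0154 in replicate 1 and of 0.145 in replicate 2, so the libraries of a pair differed by 65.1 times and by 6.91 times. On the log2 scale these are -6.02 and -2.79, with a mean of -4.41 ± 2.29 (SD, n = 2 replicates). Both replicates placed notch3 on the same side, and they differed in size by 9.41 times. Most genes on that side showed such a gap: of the 216 genes below 1 in both tables (61.4% of the 352 shared genes), 212 were farther from 1 in replicate 1, by a median difference of -2.68 on the log2 scale against -3.23 for notch3. The replicate 1 table lists no ratio between 0.0571 and 35.3 and the replicate 2 table none between 0.325 and 2.98. The part of these limits in the gap between the replicates was not tested.

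Within its side, notch3 ranked 155 of 606 in replicate 1 and 452 of 890 in replicate 2, counted from the ratio farthest from 1. It thus lay in the outer part of its side in replicate 1 and near the middle in replicate 2. By mean log2 ratio it was number 97 of the 216 genes below 1 in both. Its deposited posterior probability of equal expression was 7.37e-05 in replicate 1 and 3.45e-09 in replicate 2, lower than for most listed genes, at rank 292 of 1812 and 240 of 1560. The posterior and the uncorrected fold of notch3 were nearly equal in both tables, at 0.0154 for either column in replicate 1 and at 0.145 and 0.144 in replicate 2. With the replicate as a block, limma over the 352 shared genes gave notch3 a mean of -4.41 with a standard error of 2.19. The unadjusted p of this limma fit was 0.0447 and its Benjamini-Hochberg adjusted p 0.0855, with both replicates below 1. The standard error and the p values rest on a variance shared over all 352 genes. They therefore do not measure the spread of notch3 over its 2 replicates. Before adjustment, 104 of the 352 genes below 1 and 93 above 1 had a p under 0.05 in this fit. The unadjusted p of notch3 was number 184 of 352 counted from the smallest, so it does not set notch3 apart from the other shared genes. After adjustment, the fit called 4 of the 352 genes below 1 (1.14%) and notch3 was not among them. All 352 genes had been listed for large ratios, and the test carries that selection.

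The 5 named genes whose pair of log2 ratios lay nearest to that of notch3, by Euclidean distance over the 2 replicates, were fabp1b.2, sorbs2a, EPCAM, efna1b and prox1. Their distances ran from 0.083 to 0.12. The nearest, fabp1b.2, encodes a fatty acid binding protein and lay 0.083 away, at -6.10 and -2.82 in the authors' deposited tables of replicates 1 and 2. EPCAM, an epithelial cell adhesion gene, was at -6.00 and -2.89 there, efna1b, an ephrin ligand gene, at -6.03 and -2.89, and prox1, a homeobox transcription factor gene, at -6.14 and -2.82. The last, sorbs2a, was at -6.09 and -2.73. None of the 5 was a floor gene (defined below) in either table.

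**Figure D2:**
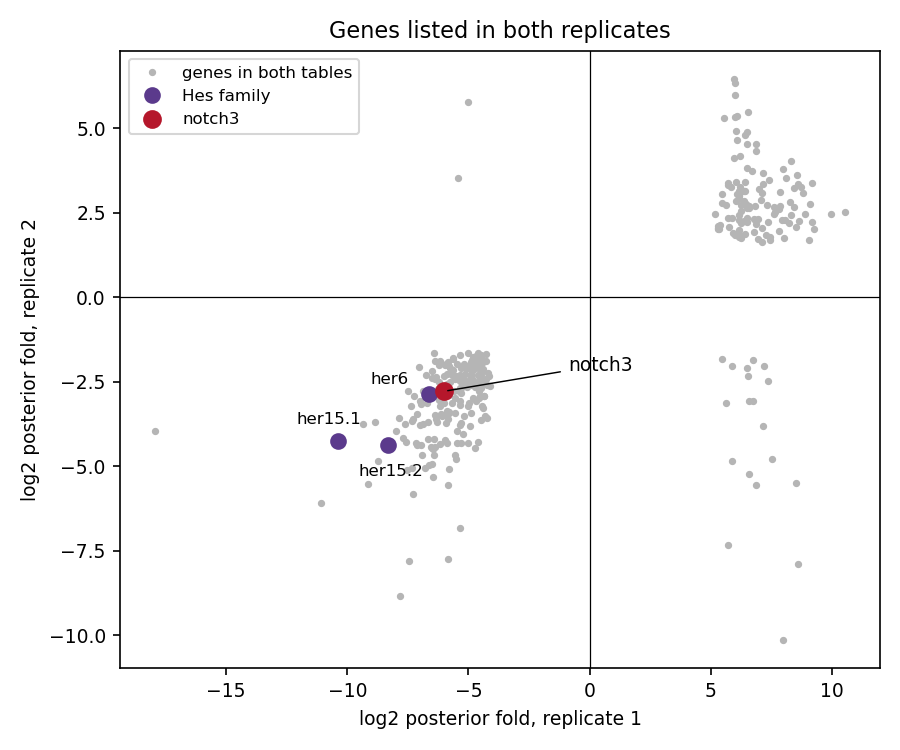
Log2 posterior folds of the 352 genes in both tables, replicate 1 on the horizontal and replicate 2 on the vertical axis, with notch3 in red and 3 genes of the Hes family in purple. The point of notch3, at -6.02 and -2.79, lies within the cloud of 216 genes below 1 in both, as does her6 at -6.63 and -2.88. Genes outside the pathway, such as EPCAM at -6.00 and -2.89, lie nearer to notch3 than her6 does.

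The other receptor gene, notch1a, was listed in replicate 2 alone. The authors' deposited table gave notch1a a ratio of 0.308, a 3.24-fold difference and a log2 ratio of -1.70, with an uncorrected fold of 0.306. This is among the ratios closest to 1 on its side: notch1a ranked 871 of 890, and the listed ratio nearest to 1 was 0.325. Its posterior probability of equal expression, 0.00849, was number 1512 of 1560 counted from the smallest. A ratio of this size could not have been listed in replicate 1, where no listed ratio below 1 was above 0.0571. Some genes near this ratio in replicate 2 were listed in replicate 1 farther from 1, such as gas1b, at log2 ratios of -1.70 in replicate 2 and -4.50 in replicate 1. Whether the absence of notch1a from replicate 1 sets the replicates apart was not tested. The row of notch1a is a gene model of 2051 bp (ENSDARG00000094351, Zv9 chromosome 21, 5024266 to 5026316), beside 31631 bp for notch3, and the table of Ensembl gene names gives this identifier no symbol. The ratio therefore stands for the reads assigned to that short model, and how it relates to the whole receptor gene was not tested.

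The feedback gene nrarpb (ENSDARG00000018958, Zv9 chromosome 5, 69012102 to 69015469) was likewise in replicate 2 alone. In the authors' deposited table nrarpb was at a ratio of 0.312, or 3.21-fold from 1, and at -1.68 on the log2 scale, with an uncorrected fold of 0.310. It ranked 875 of 890 on its side, close to notch1a at rank 871, and its posterior probability of equal expression was 0.00593, number 1400 of 1560 from the smallest. Both genes were thus near the edge of the list, and both lay above the table's median log2 ratio of -1.90. Egg coat genes (symbols starting with zp and a digit) were also below 1 in replicate 2, 14 of 14 listed with a median log2 ratio of -5.34, and above 1 in replicate 1, 4 of 4 listed. Floor genes (defined below) made up 1 of the 14 in replicate 2 and 3 of the 4 in replicate 1. Of 24 immediate-early and dissociation response genes, 5 were listed in each replicate, all below 1. Of all listed genes, 33.4% lay below 1 and 66.6% above in replicate 1, and 57.1% lay below 1 in replicate 2. Of the immediate-early and dissociation response genes, 4 were below 1 in both replicates, as notch3 was. The part of either set in the values of notch3, notch1a and nrarpb was not tested.

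**Figure D3:**
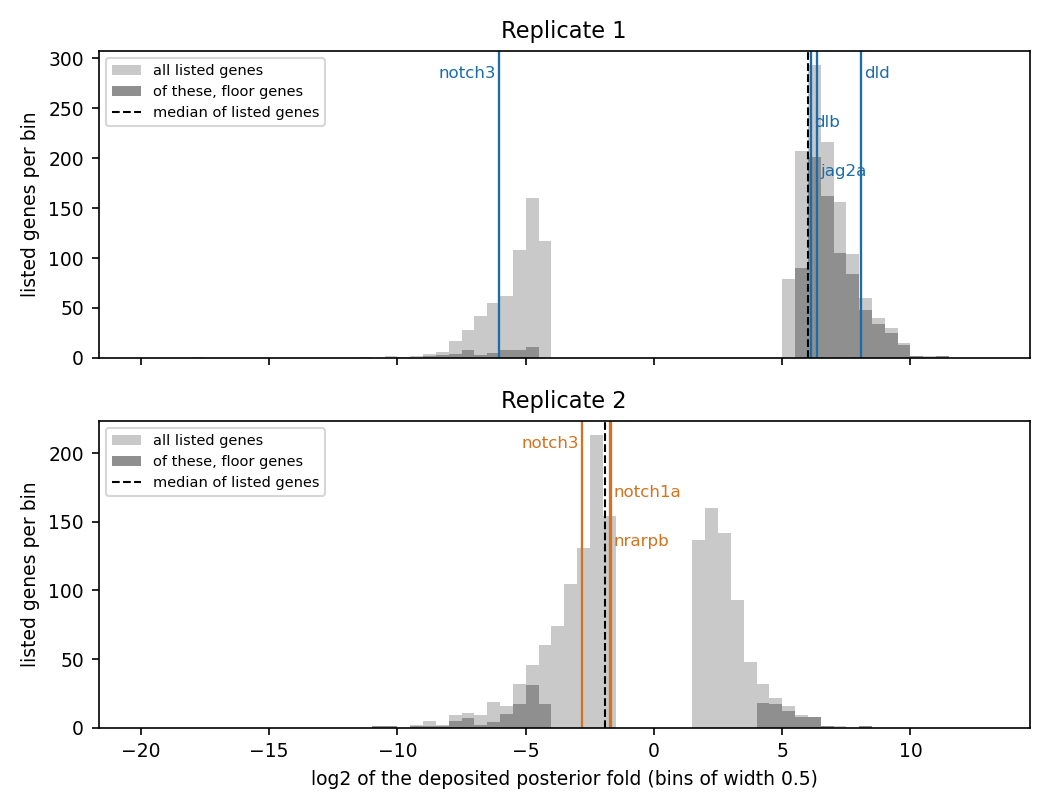
Number of listed genes by log2 posterior fold in replicate 1 (upper) and replicate 2 (lower), floor genes in dark grey, with coloured lines at the 6 genes and a dashed line at the median of each table (6.02 and -1.90). In replicate 2 notch1a and nrarpb stand at the inner edge of the list, on the upper side of the median, and in replicate 1 dlb and jag2a stand among the floor genes while dld lies farther out.

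The 3 ligand genes were listed in replicate 1 alone, and differ in how far apart their fold columns lie. In 767 of the 1206 genes above 1 in that table (63.6%), the uncorrected fold exceeds the posterior fold by at least 138 times, a clear break from the others, where the factor reaches at most 9.48. Genes of either table, on either side of 1, whose fold columns lie over 10 times apart are called floor genes here. Their ratio depends on the column read, and dlb and jag2a are among them while dld is not.

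Of the ligand genes, dld (ENSDARG00000020219, Zv9 chromosome 13, 5753086 to 5759318), a Delta gene known in zebrafish from somite and nervous system patterning, had the ratio farthest from 1. The authors' deposited table of replicate 1 gave dld a posterior fold of 267 and an uncorrected fold of 326, log2 values of 8.06 and 8.35, which differ by a factor of 1.22. It ranked 144 of the 1206 genes above 1, and 26 of the 439 that were not floor genes. Its posterior probability of equal expression was 4.18e-05, at rank 229 of 1812. Among the 6 genes this is the ratio farthest from 1 in either table by the posterior fold; by the uncorrected fold dlb and jag2a lie farther out.

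The second Delta gene, dlb (ENSDARG00000004232, Zv9 chromosome 5, 38294021 to 38301923), encodes a ligand known from the developing zebrafish nervous system. The authors' deposited table gave dlb a posterior fold of 68.8 and an uncorrected fold of 9790, a factor of 142 between them. Its probability of equal expression, 0.00578, was at rank 1469 of 1812. The Jagged gene jag2a (ENSDARG00000014246, no locus readable in the file) was close to dlb, with a posterior fold of 82.5, an uncorrected fold of 11764 and a log2 posterior fold of 6.37 in the authors' deposited table. For jag2a the probability of equal expression was 0.00355, at rank 1256. Both genes fell in the inner part of their side, at ranks 846 and 697 of 1206, and lay only 0.082 and 0.34 above the median log2 ratio of the table. Neural and glial markers lay on the side of the ligand genes in replicate 1, as did 66.6% of all its listed genes. Of the 10 markers 3 were listed there (elavl3, foxd3 and plp1b), at log2 ratios from 5.91 to 6.98, and 2 were floor genes. In replicate 2, where no ligand gene was listed, 2 of the 10 were listed, both above 1, as were 42.9% of all listed genes. The authors' deposited table gave elavl3 1.90 and foxd3 5.35 there, foxd3 as a floor gene. The part of these markers in the ratios of the ligand genes was not tested.

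Set against each other in replicate 1, notch3 was at -6.02 and the ligand genes had a median log2 ratio of 6.37, a difference of -12.39. By the uncorrected fold the difference was -19.28, and with dld as the only ligand gene left after removing floor genes it was -14.09. The sign was the same each time, but these alternatives keep the genes on their sides of 1 and could not have changed it. Replicate 1 lists no ratio between 0.0571 and 35.3, so listed genes on opposite sides of 1 always lie far apart there. Over all its listed genes, the median log2 ratio was -5.10 below 1 and 6.55 above. The size rests on 1 receptor gene and on the ligand genes of 1 pair of libraries. In replicate 2 no such contrast could be made. That table lists ratios above 1 down to 2.98, well inside the ratios of the ligand genes in replicate 1, and none of the 3 was listed; an unlisted gene may have been similar in both populations or too low to call.

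The wider pathway was followed with a list of 91 symbols, of which 11 were listed in at least 1 table. Of these, 8 lay below 1 in at least 1 replicate and 3, the ligand genes, lay above 1. In replicate 1, 5 listed genes were below 1, where 33.4% of all listed genes lay, and 3 above, with a median log2 ratio of -5.23. In replicate 2 all 7 were below 1, the side of 57.1% of all listed genes, with a median of -2.88; over all listed genes the medians were 6.02 and -1.90. Among the 10 ligand symbols, dla, dlc, dll4, jag1a, jag1b and jag2b were in neither table, and among the 4 receptors notch1b and notch2 were in neither. The second nrarp gene, nrarpa, was in neither table as well. None of the 11 symbols for the nuclear complex (such as rbpja) was listed.

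Genes of the Hes family, the best-known targets, were the rest of the listed genes, 4 in each replicate and all below 1. Of all listed genes, 33.4% lay below 1 in replicate 1 and 57.1% in replicate 2. Of the 26 Hes and Hey symbols, 21 were listed in neither replicate. The listed Hes family genes stayed below the medians after centring, which in replicate 1 every gene below 1 had to do. Besides her15.1, her15.2 and her6, which were in both tables, her2 was listed in replicate 1 at -4.43 and her11 in replicate 2 at -3.73 in the authors' deposited tables. The gene nearest in value to notch3 among them was her6, for which the authors' deposited tables gave -6.63 and -2.88, while they gave her15.1 -10.38 and -4.25. In both tables the 3 shared Hes family genes were thus farther from 1 than notch3, and in replicate 2 notch1a and nrarpb were the closest to 1 of the 7.

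**Figure D4:**
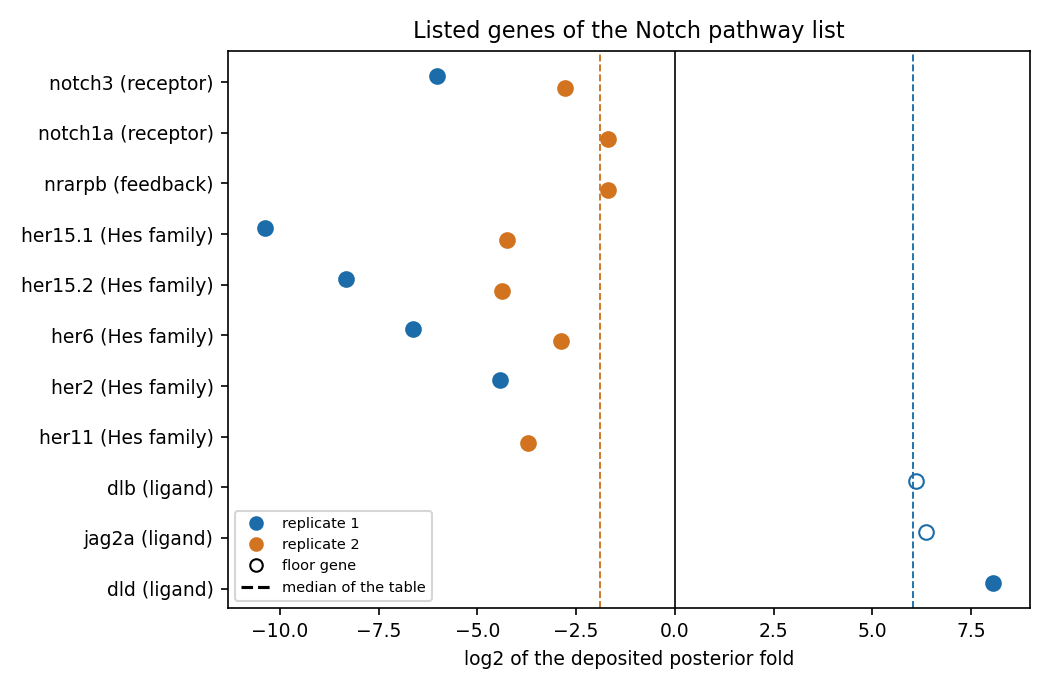
Log2 posterior fold of the 11 listed genes of the Notch pathway list by role, in replicate 1 (blue) and replicate 2 (orange), with open circles for floor genes and dashed lines at the medians of the tables. Receptor, feedback and Hes family genes lie below 0 and the ligand genes above, in replicate 1 alone. Relative to the median of the genes called different in replicate 2, notch1a and nrarpb lie above at 0.20 and 0.22.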

How the data were processed

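Sequencing libraries came from a TruSeq kit for RNA, per the labels' protocols. The submitters' processing notes name RSEM and the assemblies Zv9 and danRer7, without version or role, and Zv9 was taken as the assembly of the loci. No source used here names the model behind the posterior probabilities. Per the file headers, the authors deposited, for each listed gene, posterior probabilities as a fraction between 0 and 1 and a posterior and an uncorrected fold, both linear ratios of 1 library of a replicate to the other.

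The posterior fold was used on a log2 scale with no pseudocount. Symbols were matched exactly, in the files or through a table of Ensembl gene names that held 2048 of the 3020 identifiers. With 1 library per group in a table, no p-value was made from a single table. The descriptions of the samples name the same table for both libraries of a replicate, so the replicate numbers pair them, and the ratios are within pairs. Over genes in both tables, the log2 ratios within replicates were fitted with limma 3.58.1 (R 4.3.3), with Benjamini-Hochberg adjustment at 0.05. The code was first run on simulated normal values with a common spread. These lacked the selection for large ratios, so they do not check the fit under that selection. Alternatives were the uncorrected fold, centring, a 4-fold threshold, a posterior probability of equal expression under 0.001, removal of floor genes (fold columns over 10 times apart), other symbol matching, and each replicate alone. The named genes were the 6 genes, every listed gene of the pathway list, the 5 genes nearest to notch3 and listed genes within 500 kb. The genes and lists were chosen with earlier results of these data known. The plan foresaw edgeR only if the files held counts, and they do not.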

Additional observations from a re-analysis of the deposited data

How the results depend on the processing

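The uncorrected fold moved the log2 ratios of dlb to 13.26 and jag2a to 13.52, and the receptor minus ligand difference to -19.28, since both are floor genes; removing them gave -14.09, with 1 ligand gene left above 1 in replicate 1 among the 6 genes and also in the pathway list. Centring each table on its median shifted all log2 ratios by the medians 6.02 and -1.90. It moved notch3 to -12.05 and -0.89, dlb to 0.082, jag2a to 0.34 and dld to 2.04, and turned notch1a to 0.20 and nrarpb to 0.22, which left 1 of the 6 genes below and 2 above in replicate 2. The medians are those of genes called different, not of all genes measured. A 4-fold threshold left 1 of the 6 genes below 1 in replicate 2. A posterior probability of equal expression under 0.001 left 1 of them above 1 in replicate 1 (dld) and 1 below in replicate 2 (notch3), and in the pathway list 1 and 4. With 1 replicate left out, the notch3 mean ranged from -6.02 to -2.79, the pathway genes below 1 from 5 to 7 and those above 1 from 0 to 3, the ligand genes resting on replicate 1. The replicate block left the notch3 mean at -4.41, which it could not have changed, since the fit takes the mean of the 2 ratios. Matching symbols without regard to case, chosen after seeing the data, added DNER and NEURL1B. Depth is unknown, so no counting interval could be given.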

Other observations

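Some listed genes related to the pathway fell outside the fixed symbols and were chosen after their values were seen. In replicate 1 alone, the authors' deposited table gave NOTCH2NL (ENSDARG00000087902, Zv9 chromosome 7, 76240268 to 76250422) -5.05 on the log2 scale and notchl (ENSDARG00000088308, chromosome 16, 51985713 to 52007871) -4.20, both below 1, as notch3 was, and neither a floor gene. These symbols are the files' own, and what the gene models encode was not examined. DNER, which in mammals encodes an atypical Notch ligand of neurons, was above 1 in replicate 1 in the authors' deposited table, with a posterior fold of 96.9 and an uncorrected fold of 13844, and so a floor gene like dlb and jag2a. NEURL1B, which in mammals encodes a ubiquitin ligase acting on Notch ligands, was below 1 in replicate 2, where the authors' deposited table gave -2.06 as its log2 ratio.

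Distances were taken only for genes with a readable Zv9 locus, which 335 of the 1812 listed genes of replicate 1 and 168 of the 1560 of replicate 2 lack. Among genes with one, none lay within 500 kb of notch3 in either table. The gene nova1, which encodes an RNA-binding protein of neurons, lay 67.2 kb from dlb and was above 1 as dlb was; the authors' deposited table of replicate 1 gave 6.24 as its log2 ratio. Near nrarpb, mboat4 (129 kb away) was above 1 in replicate 1 at 6.88, a floor gene, and prlrb, a prolactin receptor gene (255 kb away), was below 1 in replicate 2 at -2.22 in the authors' deposited tables. The gene ANGPT2, 454 kb from dld, was above 1 at 6.37 in replicate 1 there, and a floor gene. Listed genes with a locus within 500 kb of notch1a, 4 in replicate 1 and 3 in replicate 2, have clone names and all lay above 1. So did 66.6% of all listed genes in replicate 1 and 42.9% in replicate 2. FP016063.1 was counted in both replicates. All 4 in replicate 1 were floor genes, as was CT027677.5 in replicate 2.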
